A study of Trichoderma reesei with 8 samples.

Results

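Oxidation genes of Trichoderma reesei QM6a, 3 in number, are described here over the 8 libraries of the series. They are the alcohol oxidase gene aox1 (transcript 80659, gene model estExt_GeneWisePlus.C_190326), the gene of a GFO_IDH_MocA family dehydrogenase (transcript 56840, model e_gw1.3.954.1) and the gene of a bifunctional catalase/peroxidase (transcript 123827, model estExt_fgenesh5_pg.C_270067). These 3 of the 9126 deposited gene models were chosen by name. The first was given as a model, and each of the other 2 is the single model with the mean RPKM, to within 0.005 in every condition, that the study lists for the transcript ID. All 3 stand in the study's list of genes that encode no carbohydrate-active enzyme and that passed its limits of 50 RPKM for the straw mean and of 20-fold for the rise above 48 h glucose. Their rise on straw over 48 h glucose therefore chose them, so it is given as a description, without a test, and is not independent evidence of a direction.

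The wild-type strain QM6a was grown from conidia in minimal medium with 1% (w/v) glucose as carbon source, at 28°C with shaking, and all cultures shared this first growth. In the 5 h glucose group (n = 2 libraries analysed here), straw cultures had received glucose to 1% (w/v) and were kept for another 5 h, with the straw still present. In the 24 h straw group (n = 3), the mycelium had been filtered off, washed and moved for 24 h to fresh medium with 1% (w/v) wheat straw. In the 48 h glucose group (n = 3), mycelium was taken after 48 h in glucose. Straw and 48 h glucose differ in carbon source, culture age and the transfer to fresh medium, and these cannot be told apart. The 5 h and 48 h glucose groups differ in culture age, the transfer, the earlier 24 h on straw and the straw still present. These cannot be told apart either. The study describes its replicated cultures as independent. RNA came from whole mycelium, so fewer hyphae that transcribe a gene and less RNA per hypha also cannot be told apart.

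Alcohol oxidases are flavoenzymes that oxidise primary alcohols with molecular oxygen, and they release an aldehyde and hydrogen peroxide. In methylotrophic yeasts such an enzyme carries out the first step of methanol use inside the peroxisome. Bifunctional catalase/peroxidases are haem enzymes that break down hydrogen peroxide and can also use it to oxidise other substrates. The GFO_IDH_MocA family is named after glucose-fructose oxidoreductase, inositol dehydrogenase and a rhizopine catabolism protein, and its members use NAD(P) to oxidise or reduce sugars and related compounds.

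The libraries differed in depth and in the share of reads that fell on genes. Counted sense reads summed to 798550 and 950244 at 5 h glucose, to between 2473359 and 2997433 on straw and to between 1337099 and 1704969 at 48 h glucose. The library total behind the authors' RPKM was recovered from the values, and the counted reads came to between 7.38 and 10.2 per 100 of it at 5 h glucose, between 18.2 and 20.2 on straw and between 10.1 and 12.2 at 48 h glucose. RPKM values are therefore scaled to reads of which most were not counted on genes, and fold changes below come from counts scaled by edgeR's TMM method unless RPKM is named. Straw libraries 1 and 3 were nearly alike, with a chi-square of 1.32 per degree of freedom over 7658 genes, whereas the other pairs of replicates gave 5.79 to 11.4. They still differed beyond counting noise and were kept as 2 libraries. Whether they came from separate cultures could not be told from the files, so an SD over the 3 straw libraries may rest on fewer cultures. Their sum as 1 library changed no call given below for the 3 genes.

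The alcohol oxidase gene aox1 was among the most abundant transcripts on straw. It lies on scaffold 19 of JGI assembly version 2, from base 609177 to base 611530, and its transcript is 2045 bases long. Its RPKM was 1.37 and 0.683 at 5 h glucose, 1609, 1655 and 1592 on straw, and 1.01, 1.15 and 0.702 at 48 h glucose. These values rest on 22 and 18 reads at 5 h glucose, on 44322, 42592 and 53640 reads on straw, and on 29, 30 and 19 reads at 48 h glucose. The 3 straw libraries lay far above the 5 others and close to each other (1619 ± 32.7 RPKM, SD, n = 3), and the values of the 2 glucose groups overlapped.

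By RPKM, aox1 took rank 3, 4 and 3 of all gene models in the straw libraries. In the glucose libraries its rank lay between 5395 and 6043. In straw library 1 its reads made up 1.79% of all counted reads (95% Wilson interval 1.78% to 1.81%, which covers counting error only). In the 5 h glucose library 1 they made up 0.00275% (0.00182% to 0.00417%).

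On the TMM scale, aox1 was higher on straw than at 48 h glucose by 9.92 ± 0.30 (log2 fold change ± SE), about 972-fold. This is the contrast by which the study chose the gene. It fell to 0.146% of the straw level at 5 h glucose (log2 fold change -9.42 ± 0.37, edgeR quasi-likelihood test, adjusted p = 3.23e-12), or to 0.0635% by the ratio of mean RPKM. Between the 2 glucose conditions the difference was 0.50 ± 0.36 in log2 and did not pass the test (edgeR adjusted p = 0.255).

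**Figure D1:**
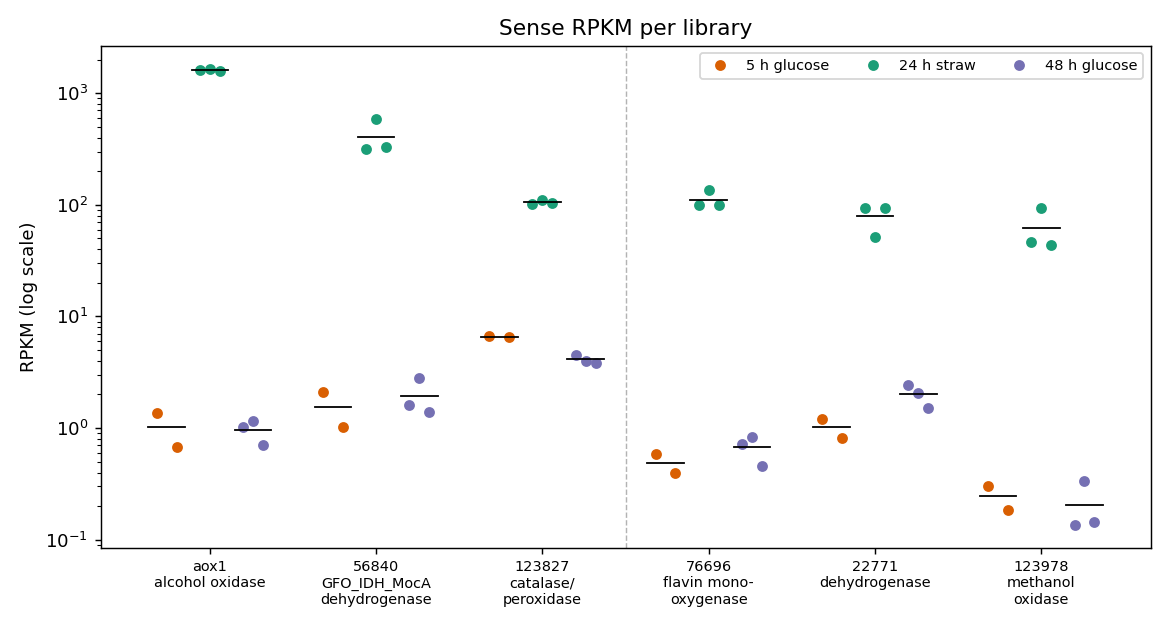
RPKM of the 6 oxidation genes of the study's list in each library, on a logarithmic axis; points are libraries (5 h glucose, 24 h straw and 48 h glucose, in that order within each gene) and lines are group means. The genes left of the dashed line are the 3 described here, and aox1 sits at 1592 to 1655 RPKM in the straw libraries and at 0.683 to 1.37 RPKM in the 5 glucose libraries.

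The dehydrogenase gene 56840 also had its high values on straw, but its straw libraries were spread more widely. It lies on scaffold 3, from base 61027 to base 62004, and its transcript of 978 bases spans the whole gene. Its RPKM was 2.09 and 1.03 at 5 h glucose, 315, 582 and 327 on straw, and 1.61, 2.80 and 1.39 at 48 h glucose. The reads behind these were 16 and 13 at 5 h glucose, 4146, 7158 and 5271 on straw, and 22, 35 and 18 at 48 h glucose. Straw library 2 stood above libraries 1 and 3, so that the straw mean of 408 RPKM had an SD of 151 (n = 3), and the glucose groups overlapped.

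The gene ranked 40, 17 and 41 by RPKM in the straw libraries. It was higher on straw than at 48 h glucose by 6.91 ± 0.31 in log2, about 120-fold, in the contrast that chose it. It fell to 0.886% of the straw level at 5 h glucose (log2 fold change -6.82 ± 0.38, edgeR adjusted p = 1.09e-10), or to 0.382% by the ratio of mean RPKM. The difference between 5 h and 48 h glucose was 0.09 ± 0.44 (edgeR adjusted p = 0.877), and its sign turned with the scaling, to -0.38 with the library totals behind the RPKM.

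The catalase/peroxidase gene 123827 differed from the other 2 in its level in glucose. It lies on scaffold 27, from base 164051 to base 166846, with a transcript of 2655 bases. Its RPKM was 6.63 and 6.52 at 5 h glucose, 102, 110 and 104 on straw, and 4.55, 4.00 and 3.84 at 48 h glucose. The reads were 138 and 223 at 5 h glucose, 3642, 3666 and 4533 on straw, and 169, 136 and 135 at 48 h glucose. The 3 groups did not overlap, with straw highest, 5 h glucose next and 48 h glucose lowest, and the straw libraries were close together (105 ± 4.15 RPKM, SD, n = 3).

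On the TMM scale 123827 was higher on straw than at 48 h glucose by 3.86 ± 0.20 in log2, about 14.5-fold, in the contrast that chose it. By the ratio of mean RPKM the same difference was 25.4-fold. The gene fell to 15.5% of its straw level at 5 h glucose (log2 fold change -2.69 ± 0.22, edgeR adjusted p = 1.13e-08). The size of this fall moved with the scaling as well, to 6.26% of the straw level by the ratio of mean RPKM and to a log2 fold change of -4.00 with the library totals behind the RPKM. At 5 h glucose the gene was above 48 h glucose by 1.17 ± 0.21 in log2, about 2.25-fold (edgeR adjusted p = 1.65e-04). That call was kept under every alternative that was run for it, with adjusted p between 3.27e-24 and 0.0156. Its size moved with the scaling: with the library totals behind the RPKM it was 0.67, and by the ratio of mean RPKM 5 h glucose was 1.59-fold above 48 h glucose. The 2 libraries at 5 h glucose, close by RPKM, stood at 66.0 and 99.1 TMM-normalized CPM per kilobase, beside 34.7 to 38.6 at 48 h glucose. With 5 h glucose library 1 or 2 left out, the log2 fold change was 1.40 or 0.79.

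Across all genes tested, calls in each direction were common. On straw over 48 h glucose, 30.6% of the 7211 genes tested were called higher and 28.2% lower by edgeR at an adjusted p below 0.05. In 5 h glucose over straw, 28.5% were called higher and 30.0% lower, and all 3 genes were among the lower ones. At 5 h over 48 h glucose, 25.7% were called higher and 23.2% lower, and 1 of the 3 genes, 123827, was called higher. The comparison of 5 h glucose with straw shares the straw libraries with the choice of the genes, and that of 5 h with 48 h glucose shares the 48 h glucose libraries with it.

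These splits depended on the scaling. With the library totals behind the RPKM, 4294 genes were called higher and 753 lower on straw over 48 h glucose, against 2203 and 2034 with TMM. In 5 h glucose over straw these were 443 and 4850, against 2056 and 2166 with TMM, and at 5 h over 48 h glucose 847 and 2415, against 1850 and 1671. Over all genes, the median fold change in log2 was then 0.85, -1.31 and -0.40 in these comparisons, in place of 0.05, -0.04 and 0.06 with TMM. In these comparisons the values of 123827, 3.86, -2.69 and 1.17 with TMM, became 4.67, -4.00 and 0.67.

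The levels of the 3 genes relative to each other differed between the groups. The ratio of aox1 to 123827 within a library, both in RPKM, was 0.207 and 0.105 at 5 h glucose, 15.8, 15.1 and 15.4 on straw, and 0.223, 0.286 and 0.183 at 48 h glucose. Thus aox1 was the more abundant of this pair in the 3 straw libraries and the less abundant in the 5 others. The ratio of aox1 to 56840 was 0.658 and 0.662 at 5 h glucose, 5.11, 2.85 and 4.87 on straw, and 0.630, 0.410 and 0.505 at 48 h glucose, so straw library 2 stood apart from the other straw libraries here.

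The order of the levels was the same in each straw library, with aox1 first, 56840 next and 123827 last. In each glucose library 123827 was first. Of the other 2, 56840 lay above aox1 in all 5 glucose libraries, although the groups of both genes came close (0.683 to 1.37 RPKM for aox1 and 1.03 to 2.80 RPKM for 56840).

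**Figure D2:**
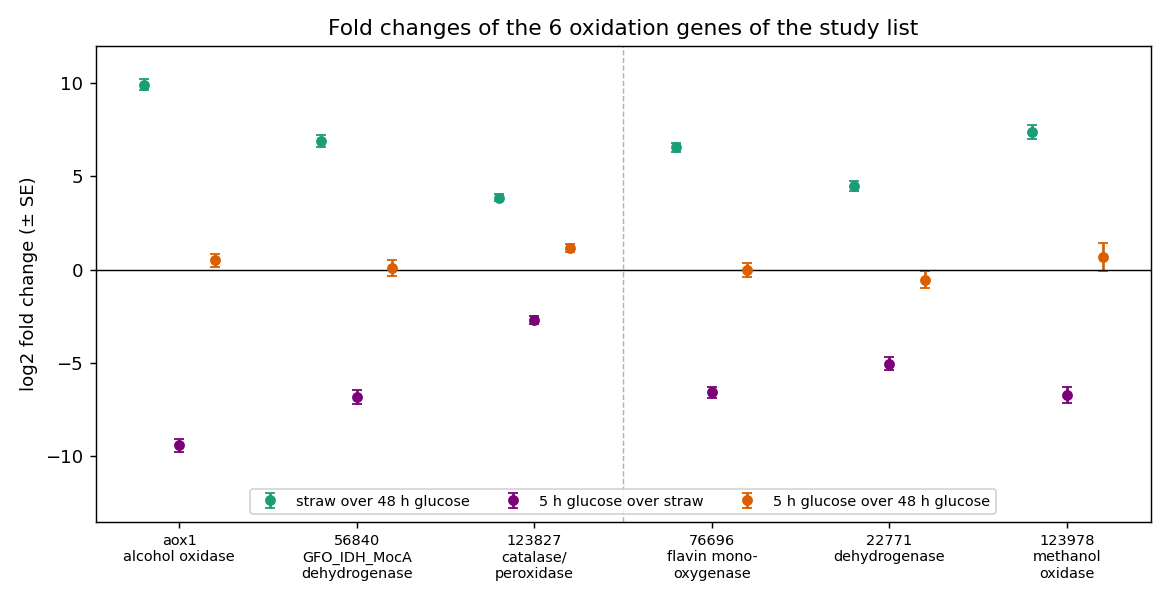
Log2 fold changes (TMM-scaled counts, edgeR) of the 6 oxidation genes of the study's list in the 3 comparisons; bars are standard errors. On straw over 48 h glucose the values, from the contrast that chose the genes, run between 3.86 and 9.92, and at 5 h over 48 h glucose 123827 alone, at 1.17, is past the test.

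The study's list holds 3 further oxidation-related genes, which encode a flavin-containing monooxygenase (76696), a dehydrogenase (22771) and a methanol oxidase (123978). Methanol oxidases are alcohol oxidases that act on methanol. The RPKM of 123978 was 0.304 and 0.185 at 5 h glucose, 46.5, 94.6 and 43.6 on straw, and 0.136, 0.335 and 0.144 at 48 h glucose, with 4 to 9 reads in each glucose library. The RPKM of 76696 was 0.581 and 0.393 at 5 h glucose, 99.4, 135 and 99.2 on straw, and 0.724, 0.831 and 0.459 at 48 h glucose. That of 22771 was 1.22 and 0.823 at 5 h glucose, 93.1, 51.7 and 93.0 on straw, and 2.43, 2.07 and 1.52 at 48 h glucose. As for aox1, every straw library lay above every glucose library in these genes.

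On straw over 48 h glucose, which chose them too, their log2 fold changes were 7.40 ± 0.37 for 123978, 6.56 ± 0.24 for 76696 and 4.51 ± 0.26 for 22771. In 5 h glucose over straw, 76696 and 22771 fell, with log2 fold changes of -6.58 ± 0.30 and -5.03 ± 0.36 (edgeR adjusted p = 7.49e-12 and 2.18e-09). The value of 123978 was -6.72 ± 0.45, but this gene passed the filter on low counts through the straw libraries alone, so its call adds no support. At 5 h over 48 h glucose none of the 3 passed the test, with adjusted p = 0.475 for 123978, 0.985 for 76696 and 0.359 for 22771. Over the 6 genes the median log2 fold change was 6.74 on straw over 48 h glucose, beside 0.05 over all genes tested, and -6.65 at 5 h glucose over straw, beside -0.04. The first median follows from the limits that chose the genes. The second shares the straw libraries with that choice and holds 123978, so both are descriptions.

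Straw library 2 set these genes apart from each other. On the TMM scale its level relative to the mean of straw libraries 1 and 3 was 0.975 for aox1, 1.71 for 56840 and 1.01 for 123827. It was 1.98 for the methanol oxidase gene 123978, 1.29 for 76696 and 0.523 for 22771. Of the 6439 genes tested with at least 10 CPM on straw, 3.62% were at least 1.5-fold higher in library 2 and 3.49% were lower to the same degree. Thus 2 of the 6 oxidation genes were on the high side of this limit and 1 on the low side, while aox1 and 123827 were level in all 3 straw libraries. Over those genes the root mean square log2 difference was 0.207 between straw libraries 1 and 3, 0.338 between 1 and 2 and 0.327 between 2 and 3.

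Without straw library 2, the log2 fold change at 5 h glucose over straw was -6.55 for 56840, -9.47 for aox1 and -2.73 for 123827. No single library left out changed the calls of the 3 genes in this comparison.

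The genes whose profiles were most like those of the 3 genes were sought over the 8 libraries, as the smallest root mean square difference of log2(CPM + 1) after centring each gene on its own mean. The same 3 conditions shape every profile, so the likeness is a description and carries no test. For aox1 the 5 nearest of the 7211 tested genes all stand in the study's list of straw-induced genes for carbohydrate-active enzymes. They were the alpha-glucuronidase gene glr1 (0.312), the cellobiohydrolase gene cbh1 (0.367), the xylanase gene xyn2 (0.389), the copper-dependent monooxygenase gene cel61b (0.455) and the xylanase gene xyn4 (0.474). In mean RPKM, cbh1 stood at 2.38 in the 5 h glucose libraries, at 2346 in the straw libraries and at 1.57 in the 48 h glucose libraries, beside 1.03, 1619 and 0.954 for aox1. The gene cel61b was near the floor in glucose, with a mean of 4.90 CPM at 5 h glucose and 4.27 CPM at 48 h glucose (TMM scale).

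For 56840 the nearest were 2 genes of the same study list, the methanol oxidase gene 123978 (0.234) and the flavin-containing monooxygenase gene 76696 (0.269). They were followed by the model e_gw1.7.459.1 (0.342), the unknown protein 62285 (0.446) and the MFS transporter 106330 (0.475). In TMM-normalized CPM, the means at 5 h and 48 h glucose were 0 and 0.45 for e_gw1.7.459.1 and 0.63 and 0.23 for 62285. Those of 123978 were 6.12 and 3.82. All of these lie below the 6.29 CPM cutoff of the filter on low counts, so the pseudocount weighs on their likeness. Of the 5 genes, 123978 had its high value in straw library 2, as 56840 did. For 123827 the nearest were a transporter gene, 62502 (0.118), the xylitol dehydrogenase gene XDH1 (81271, 0.194), whose enzyme acts in xylose catabolism, the models estExt_fgenesh5_pg.C_360012 (0.204) and estExt_fgenesh5_pg.C_100260 (0.207), and the unknown protein 66583 (0.224). Of these, 62502 also lay below the cutoff, with a mean of 4.22 CPM at 5 h glucose and 1.35 CPM at 48 h glucose. The mean RPKM of XDH1 was 4.64 in the 5 h glucose libraries, 74.4 in the straw libraries and 3.58 in the 48 h glucose libraries, beside 6.58, 105 and 4.13 for 123827.

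The 3 genes were also set against each other in this measure. The difference between aox1 and 56840 was 1.43, that between 56840 and 123827 was 1.74, and that between aox1 and 123827 was 3.06. From aox1, 56840 came at rank 36 among the tested genes and 123827 at rank 273. From 56840, aox1 came at rank 163 and 123827 at rank 267, and from 123827, 56840 came at rank 3530 and aox1 at rank 7076, so the rank depended on the gene it was counted from. With 0.1 CPM in place of 1 CPM as the pseudocount, 4 of the 5 genes named for aox1 stayed among its 5 nearest, but only 2 of the 5 for 56840 and 2 of the 5 for 123827.

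**Figure D3:**
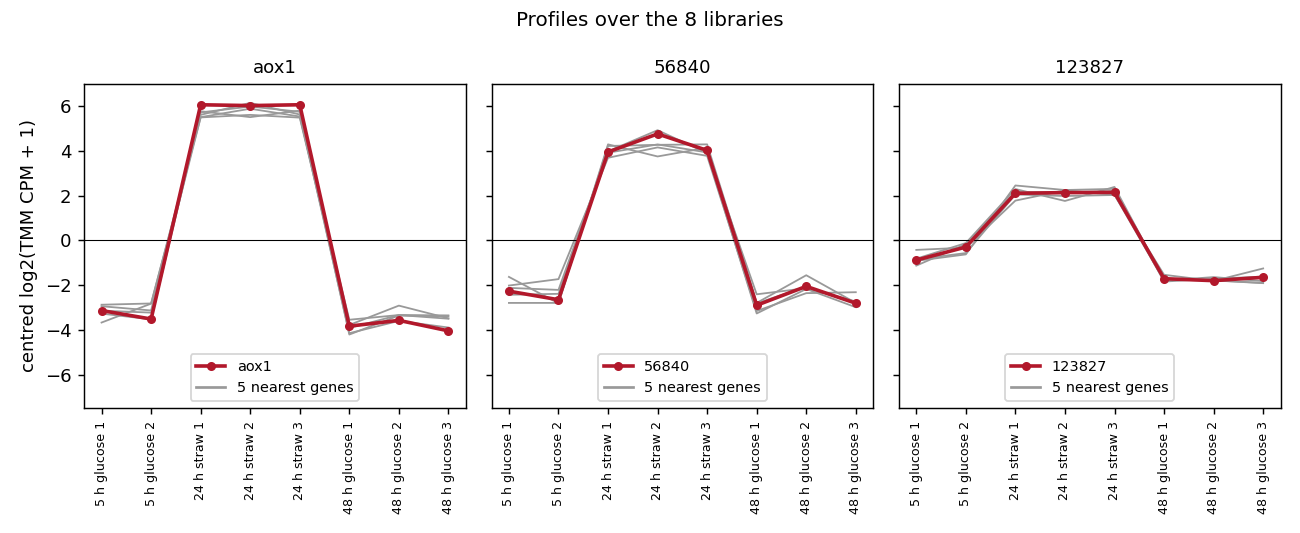
Log2(TMM-normalized CPM + 1), centred on each gene's mean, in the 8 libraries for aox1, 56840 and 123827 (red) and the 5 tested genes with the most similar profile (grey); lines join the libraries of a gene and imply no order of replicates. The 5 grey profiles lie within 0.312 to 0.474 of aox1, 0.234 to 0.475 of 56840 and 0.118 to 0.224 of 123827 (root mean square log2 difference).

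The position of the genes was read from the RefSeq annotation of the same assembly. Of the 65 genes in the study's lists of straw-induced genes, the closest to 56840 was a xylose transporter gene (104072), 6865 bases away with 2 genes between them. The endoglucanase gene egl2 lay 25476 bases from 56840 and the cellobiohydrolase gene cbh2 46586 bases. The closest to 123827 was xyn2, 37605 bases away with 14 genes between, and the closest to aox1 was the arabinofuranosidase gene abf1, 32799 bases away with 12 genes between. No test of these distances was made.

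Among the 5 genes on each side, 6 of 10 around 56840, 3 of 10 around 123827 and 2 of 10 around aox1 could be matched to a deposited model. They were chosen by position, outside the rule for named genes and after values were seen. Next to 56840, 1003 bases away, lies a transporter gene (56684) with 0 reads in both 5 h glucose libraries, 571, 1040 and 639 reads on straw and 1 read in each 48 h glucose library. Its RPKM on straw was 28.0, 54.7 and 25.7, and its level in straw library 2 was 1.92 times the mean of libraries 1 and 3 on the TMM scale, beside 1.71 times for 56840. Of the 6 matched neighbours of 56840, 5 had their highest mean RPKM on straw and 1, the amino acid transporter gene 57015, at 48 h glucose. Those 5 had at most 6 reads in any glucose library and passed the filter on low counts through the straw libraries alone, so no call is given for them. With the library totals behind the RPKM, the median log2 fold change over all genes tested was 0.85 on straw over 48 h glucose. It was -1.31 at 5 h glucose over straw. The share of all gene models with their highest mean RPKM on straw is not given, so 5 of 6 has no background beside it. The mean RPKM of 57015 was 0.435 in the 5 h glucose libraries, 0.276 in the straw libraries and 2.04 in the 48 h glucose libraries, so that straw was its lowest group, with at most 8 reads in any library other than those of 48 h glucose.

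The xylose transporter gene 104072, the third gene on that side, had an RPKM of 0.370 and 0.225 at 5 h glucose, 400, 186 and 386 on straw, and 0.311, 0.340 and 0.164 at 48 h glucose. Its straw library 2 was the low one, at 0.447 of the mean of the other 2. By contrast, the neighbour 69171 of 123827, an unknown protein 858 bases away, was lower on straw than at 48 h glucose, with a log2 fold change of -1.20 (edgeR adjusted p = 1.04e-05), where 123827 was higher. With the library totals this value was -0.41 and did not pass the test. The dienelactone hydrolase gene 69115, 4512 bases from 123827, was lower as well, at -1.92 (edgeR adjusted p = 4.79e-07). The third matched neighbour, 69066, was at -0.93 and was not called. With the library totals, 1 of these 3 neighbours was called lower on straw over 48 h glucose, beside 753 of all 7211 genes tested. The 2 matched genes near aox1 had at most 12 reads in any library and were not tested.

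Further genes of oxygen and alcohol metabolism were taken from the study's annotations, in 5 lists beside its own 6 genes. Of the 54 genes in all, 7 were left out because the values printed beside them differ from those deposited for the model. The lists hold only part of each pathway, since the annotations at hand cover part of the gene models, and they were made with results of these data known. Of the 41 genes left beside the study's own, 24 passed the filter on low counts and were tested, so the counts below hold for those alone. Of these 24, 54239 among the oxidases, 68590 in alcohol and aldehyde metabolism, and 53430 and 104418 among the flavin monooxygenases passed it through the straw libraries alone, so a count or median that holds them is a description. The same holds for the oxidase gene 55566 in both comparisons with 48 h glucose, where it had no reads. It is counted there among the genes that rose, at bounds of 2.72 on straw and 2.53 at 5 h glucose in log2. Over all genes tested, 30.6% were called higher and 28.2% lower on straw over 48 h glucose. At 5 h glucose over straw these shares were 28.5% and 30.0%, and at 5 h over 48 h glucose 25.7% and 23.2%. With the library totals, 4294 of the 7211 genes tested were called higher and 753 lower on straw over 48 h glucose. These were 443 and 4850 at 5 h glucose over straw, and 847 and 2415 at 5 h over 48 h glucose. The list counts below were not tested against these shares and numbers.

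Of the genes for peroxide and superoxide removal, 4 of 8 were tested, and 1 rose and 3 fell on straw over 48 h glucose (median log2 fold change -1.23, beside 0.05 over all genes tested). The one that rose was a catalase gene, 67538, by 4.02 ± 0.29 (edgeR adjusted p = 7.86e-10). Its RPKM was 1.06 and 0.607 at 5 h glucose, 33.5, 16.6 and 33.0 on straw, and 0.789, 1.22 and 0.938 at 48 h glucose. It fell by 3.85 ± 0.36 at 5 h glucose over straw (edgeR adjusted p = 7.19e-08), and at 5 h over 48 h glucose it was not called. Unlike 123827, this catalase gene was low in straw library 2.

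The other 3 tested genes of this list were lower on straw. The manganese superoxide dismutase gene (66345), whose enzyme turns superoxide into hydrogen peroxide, had a log2 fold change of -2.18 ± 0.20 on straw over 48 h glucose (edgeR adjusted p = 3.50e-08). The peroxiredoxin gene (55351) and the glutathione reductase gene (53567) had -1.71 ± 0.21 and -0.75 ± 0.16 (edgeR adjusted p = 1.43e-06 and 5.96e-04). In 5 h glucose over straw, 2 of the 4 rose (66345 by 2.02 ± 0.22 and 53567 by 1.85 ± 0.18) and 1 fell, with a median of 1.02. At 5 h over 48 h glucose, 1 rose (53567, by 1.10 ± 0.18) and 1 fell (55351, log2 fold change -1.52 ± 0.29), with a median of 0.01. With the RPKM library totals used to scale the counts, the value of 53567 on straw over 48 h glucose turned to 0.06 and did not pass the test, and the list's median at 5 h glucose over straw turned to -0.25.

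Of the other oxidases, 7 of 11 were tested, and 5 rose and 2 fell on straw over 48 h glucose (median 1.22). Those that fell were the genes of the alternative oxidase (57940), a mitochondrial terminal oxidase that is not the alcohol oxidase although it carries the same short name in the annotation, and of the sulfhydryl oxidase Erv1 (60849). Their log2 fold changes were -4.80 ± 0.22 and -3.90 ± 0.18 (edgeR adjusted p = 2.18e-12 and 2.92e-12). The alternative oxidase gene had an RPKM of 15.9 and 16.8 at 5 h glucose, 13.2, 12.5 and 13.6 on straw, and 241, 184 and 201 at 48 h glucose. Among those that rose was the D-aspartate oxidase gene (68956), whose enzyme also yields hydrogen peroxide, by 1.22 ± 0.16 (edgeR adjusted p = 3.90e-06). At 5 h glucose over straw, 2 rose and 3 fell (median -0.85). With the library totals in place of TMM, 1 rose and 5 fell (median -2.07), beside 443 and 4850 of all 7211 genes tested (median -1.31). At 5 h over 48 h glucose 1 rose and 3 fell (median -0.60). The 1 that rose there was the multicopper oxidase gene 55566, which had no reads at 48 h glucose, so its call adds no support.

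Of the genes for alcohol and aldehyde metabolism, 6 of 12 were tested, and 3 rose and 2 fell on straw over 48 h glucose (median 0.88). The gene of an alcohol dehydrogenase of class V (68590) was counted with 0 reads in both 5 h glucose libraries, 146, 103 and 167 reads on straw, and 0, 0 and 2 reads at 48 h glucose. It is counted among the genes that rose on straw and fell at 5 h glucose over straw, and its calls add no support. The iron-containing alcohol dehydrogenase gene (104606) rose by 3.62 ± 0.20 on straw over 48 h glucose and fell by 2.96 ± 0.25 at 5 h glucose over straw (edgeR adjusted p = 2.91e-11 and 1.79e-08). Its RPKM was 1.20 and 0.835 at 5 h glucose, 16.8, 22.2 and 17.8 on straw, and 0.913, 0.893 and 0.813 at 48 h glucose.

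The aryl-alcohol dehydrogenase gene (54694) took the other direction on straw over 48 h glucose, with a log2 fold change of -3.98 ± 0.18 (edgeR adjusted p = 1.64e-12). At 5 h glucose over straw it fell, as 104606 did, with -1.55 ± 0.33 (edgeR adjusted p = 5.62e-04). Of the 6 tested genes of this list, 4 fell and 0 rose at 5 h glucose over straw (median -1.75), or 6 and 0 with the library totals (median -3.04). With the library totals, 4850 of all 7211 genes tested fell there and 443 rose, with a median of -1.31. An aldehyde dehydrogenase family gene (54525), whose class of enzymes oxidises aldehydes to acids, rose by 1.19 ± 0.18 on straw over 48 h glucose and by 1.07 ± 0.22 at 5 h over 48 h glucose (edgeR adjusted p = 2.06e-05 and 6.84e-04), the second not past the test with the library totals. At 5 h over 48 h glucose 1 rose and 2 fell, with a median of -1.20, or of -0.52 with 68590 at the bound that 3 reads per library allow.

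Of the flavin monooxygenases, 4 of 7 were tested, and 1 rose and 2 fell on straw over 48 h glucose (median -0.43). The 1 that rose, 104418, passed the filter on low counts through the straw libraries alone, so its call adds no support. The 2 that fell, 1751 and 70311, had log2 fold changes of -3.02 ± 0.20 and -1.97 ± 0.17 (edgeR adjusted p = 2.83e-10 and 1.35e-08), whereas the flavin-containing monooxygenase gene 76696 was higher on straw. At 5 h glucose over straw 2 rose and 0 fell, and at 5 h over 48 h glucose 0 rose and 1 fell. With the library totals, 2 rose and 2 fell on straw over 48 h glucose and the median turned to 0.37. At 5 h glucose over straw 2 rose and 1 fell, with a median of -0.31 in place of 0.99, and at 5 h over 48 h glucose 0 rose and 2 fell. Of the 3 genes for peroxisome assembly, all tested, 1 rose on straw over 48 h glucose. That gene, of Pex13 (64658), a protein of the import machinery of the peroxisome, rose by 0.79 ± 0.18 (edgeR adjusted p = 9.12e-04). Over all genes tested, 30.6% were called higher there, 28.5% at 5 h glucose over straw and 25.7% at 5 h over 48 h glucose. A count of 1 in 3 is near each of these shares. In both comparisons of 5 h glucose, 1 of the 3 rose and 0 fell, and that was the gene of a peroxisomal membrane peroxin (68026), by 1.06 ± 0.30 and 0.91 ± 0.31 (edgeR adjusted p = 0.00601 and 0.0227). With the library totals in place of TMM, neither passed the test, and the first turned to -0.15. The list as a whole then had 2 genes that rose and 0 that fell on straw over 48 h glucose, 0 that rose and 2 that fell at 5 h glucose over straw (median -1.54), and 0 in either direction at 5 h over 48 h glucose. With that scaling, 4294 of all 7211 genes tested were called higher on straw over 48 h glucose. At 5 h glucose over straw, 4850 of them were called lower (median -1.31).

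**Figure D4:**
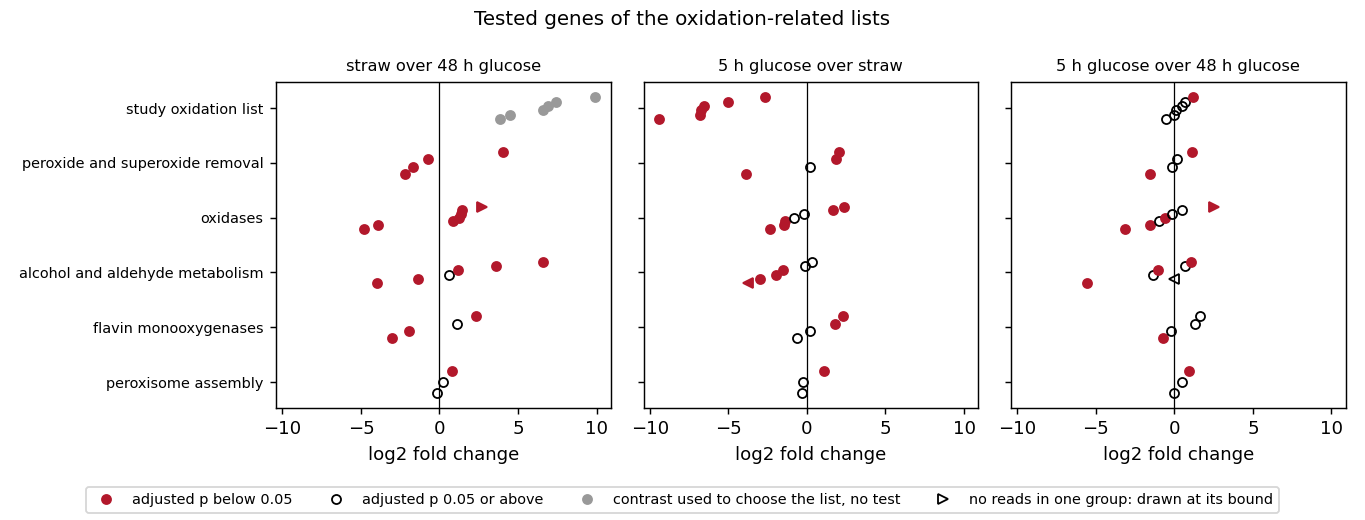
Log2 fold changes (TMM-scaled counts) of the tested genes of the 6 oxidation-related lists in the 3 comparisons, with 1 symbol per gene; triangles are genes without reads in one of the 2 groups, drawn at the bound given by 3 reads per library. The 6 genes of the study's list, drawn in grey where the contrast chose them, lie between -9.42 and -2.69 at 5 h glucose over straw. In straw over 48 h glucose each other list except peroxisome assembly has called genes on both sides of 0. Among the flavin monooxygenases the called gene above 0 is 104418. It passed the filter on low counts through the straw libraries alone, so its call adds no support.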

How the data were processed

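SOLiD reads of 50 bp were used, with each deposited library taken as 1 replicate. BioScope 1.3 and JGI assembly version 2.0 served the authors for mapping. After reads on rRNA genes had been removed, the authors deposited the sense counts of uniquely mapped reads on 9126 gene models, as raw counts (HTSeq is named in the submitters' processing notes). The RPKM were deposited by the authors as well, calculated from each count by transcript length and a library total. Counts were analysed with R 4.3.3, edgeR 4.0.16 (TMM, filterByExpr, quasi-likelihood test, 1 model of all 8 libraries, condition as the only term) and DESeq2 1.42.0, and summarised with Python 3.11.15, scipy 1.17.1, numpy 2.4.6, matplotlib 3.10.9 and pandas 2.3.3. P values were adjusted after Benjamini-Hochberg over the 7211 genes tested, with a threshold of 0.05. A standard error is the log2 fold change divided by the square root of F. On simulated data for straw over 48 h glucose with 7211 genes, 199 of 200 genes changed 4-fold were recovered, with 9 wrong calls. Only these 200 genes were changed, as many up as down, whereas calls were far more common in the data. The simulation therefore does not speak to the dependence on the scaling.

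The members and gene lists were chosen with earlier results of these data known. Genes named are the members, the 3 other oxidation genes of the study's list, up to 3 list genes per list, direction and comparison with the largest called change and at least 20 mean counts, the 5 nearest profiles per member, and neighbours by position. Transcript IDs were joined to models on 3 mean RPKM, to within 0.005, for 65 of 65 listed genes. Alternatives are named in the closing section. No sequence is shown.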

Additional observations from a re-analysis of the deposited data

How the results depend on the processing

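At 5 h glucose over straw, the calls of aox1, 56840 and 123827 were kept under all alternatives: DESeq2, scaling by the library totals that underlie the RPKM, every gene with a read, only the compared conditions, the replicate number as a block, straw libraries 1 and 3 as 1 library, Fisher's exact test on pooled counts, a threshold of 0.001 and each library left out in turn. With a library left out, the log2 fold change lay between -9.67 and -9.29 for aox1, -7.07 and -6.55 for 56840, and -3.08 and -2.47 for 123827. At 5 h over 48 h glucose it lay between 0.27 and 0.64 for aox1, between -0.15 and 0.43 for 56840, between 0.79 and 1.40 for 123827 and between -0.14 and 0.15 for 76696. With the library totals, 56840 was at -0.38 there, and at 5 h glucose over straw aox1 was at -10.68, 56840 at -8.10 and 123827 at -4.00. No call of the 3 genes changed.

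On straw over 48 h glucose, the library totals gave 10.72 for aox1, 7.72 for 56840, 4.67 for 123827, 7.36 for 76696 and 5.29 for 22771. As TMM-normalized CPM per kilobase in place of RPKM, the ratio of mean levels was 979 in place of 1697 for aox1, 120 in place of 211 for 56840 and 14.5 in place of 25.4 for 123827. At 5 h over 48 h glucose it was 1.43 in place of 1.08 for aox1 and 2.25 in place of 1.59 for 123827. With the library totals, 4294 genes were called higher and 753 lower on straw over 48 h glucose, 443 and 4850 at 5 h glucose over straw, and 847 higher at 5 h over 48 h glucose. With TMM and an adjusted p below 0.001, 1374 genes were called higher and 1301 lower on straw over 48 h glucose. In the same setting the counts were 1201 and 1154 at 5 h glucose over straw, and 846 and 762 at 5 h over 48 h glucose. With 0.1 CPM as pseudocount, 2 of the 5 nearest genes were shared for 56840 and 2 for 123827. The cause of these shifts was not tested, beyond the scaling and the threshold themselves.

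Across conditions, deviations from the group means correlated at -0.03 to 0.15 between libraries of the same number and at -0.15 to 0.14 between others. With 2 libraries at 5 h glucose, their deviations are mirror images of each other, so these ranges are in part fixed in advance. They cannot tell whether libraries of the same number came from the same culture. With the replicate number as a block, aox1 was at 9.93 on straw over 48 h glucose, and 123827 at 1.17 at 5 h over 48 h glucose (edgeR adjusted p = 1.66e-04). The 5 h glucose group has 2 libraries with 13 to 22 reads on aox1 and 56840 in each. No detection limit was computed for their difference from 48 h glucose.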
